A study of Homo sapiens with 16 samples.

Results

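Integrins and the leukocyte adhesion molecules they bind were followed in a Hodgkin lymphoma cell line carrying an inducible hairpin against RELB. The 10 genes were 6 integrin chains (ITGA4, ITGAL, ITGAV, ITGB1, ITGB2 and ITGB7), 3 ligands of the immunoglobulin family (ICAM1, ICAM3 and VCAM1) and the hyaluronan receptor CD44. They were taken as every probe set whose only gene symbol was one of these names, which gave 10 of 18395 genes, each with 1 gene-level probe set, and 196 of 257430 exon-level probe sets.

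L1236 is an established human cell line from Hodgkin lymphoma, a B-lineage tumour. All cells in the study had been infected with a retrovirus carrying a short hairpin RNA against RELB, a subunit of the NF-kB transcription factors, and were then divided: one population was left uninduced and the other received doxycycline, which switches the hairpin on, so no uninfected cells and no control hairpin were compared here. RNA from these cultures was hybridised to 8 Affymetrix whole-transcript arrays, 4 labelled uninduced and 4 labelled induced. The titles also carry a B code (B_1 or B_4) and a last number (1 or 4), whose meaning is not stated, and each label holds 1 array of every combination, always listed here in the order B_1/1, B_1/4, B_4/1 and B_4/4. Whether each array had a culture of its own is not stated, so the tests below weigh differences against the spread among these arrays alone, and part of that spread may be technical.

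Levels are log2 signals, on which a step of 1 is a doubling; they were compared between arrays and not between genes. The difference between labels (induced minus uninduced) and its standard error came from a limma model of induction label, B code and last number fitted to 13796 genes, with Benjamini-Hochberg adjustment over all of them and a threshold of 0.05. RELB, the target of the hairpin, had a mean of 7.40 ± 0.13 (SD, n = 4) in the uninduced and 7.25 ± 0.11 in the induced arrays, and the 2 groups overlapped (exact two-sided permutation test, p = 0.171, smallest possible 0.0286). The labels are therefore used as given, without a drop in the target behind them, and every difference below is one between arrays so labelled. Over all genes, arrays of different labels correlated at 0.796 to 0.826, and arrays of 1 label at 0.984 or more for uninduced and 0.987 or more for induced. Of the B cell markers, CD79A, CD22 and PAX5 were higher in the induced arrays, by 39.6-fold, 17.2-fold and 6.80-fold. CD79B did not pass (1.04-fold) and MS4A1 was too dim to test. Whether the arrays of both labels hold the same cells is in doubt and was not tested, so no difference can be put down to the hairpin. A total of 55.5% of tested genes passed the threshold between the labels, 27.1% higher and 28.4% lower in the induced arrays. The arrays were made from bulk RNA, so fewer cells of a kind and less RNA per cell cannot be told apart.

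Integrins are pairs of an alpha and a beta chain that span the cell membrane and link ligands outside the cell to actin inside it. Of the pairs the 6 chains can form, ITGAL with ITGB2 makes LFA-1, the lymphocyte receptor for ICAM proteins, ITGA4 with ITGB1 makes VLA-4, a receptor for VCAM1 and fibronectin, and ITGA4 with ITGB7 makes the receptor that guides lymphocytes to the gut. CD44 binds hyaluronan, and its transcripts can include or skip a run of variant exons in the middle of the gene.

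Between the labels, 4 of the 10 genes were higher in the induced arrays (ITGB7, ITGAL, ITGB1 and ITGB2), 4 were lower (CD44, VCAM1, ITGAV and ITGA4) and 2 did not pass (ICAM1 and ICAM3). That is 8 of 10 called, against 55.5% of all tested genes. In 6 of the 10 genes, ITGAL, ITGAV, ITGB1, ITGB7, VCAM1 and CD44, no array of one label reached the range of the other, which was so for 49.8% of all tested genes. The chains of a single pair did not all move together: ITGA4 was slightly lower while both of its beta partners were higher.

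**Figure D1:**
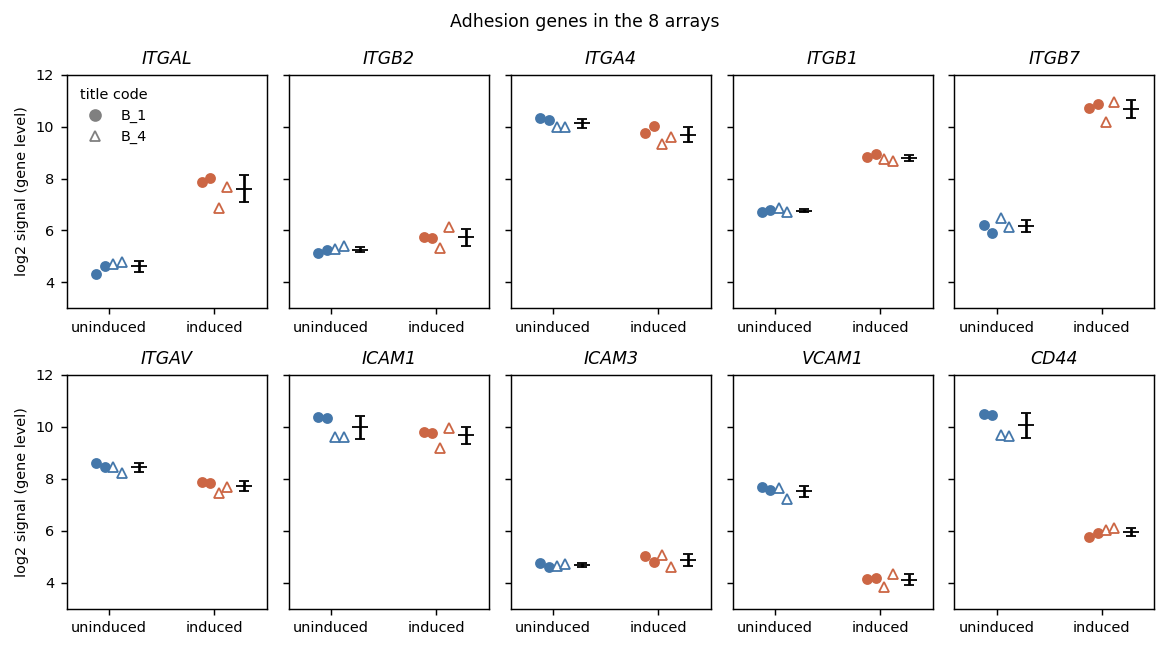
Log2 gene-level signal of the 10 genes in the 8 arrays (blue, labelled uninduced; orange, labelled induced; filled circles B_1, open triangles B_4), with the mean and SD of the 4 arrays of each label as black bars. ITGB7 lay at 5.90 to 6.49 in uninduced and 10.18 to 10.95 in induced arrays, CD44 lay at 9.63 to 10.50 and 5.75 to 6.09, and the arrays of ICAM1 overlapped.

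The 250 bases before the annotated start are printed for the 2 genes with the largest differences, CD44 and ITGB7, and for VCAM1 and ICAM1, 2 ligand genes that are textbook targets of NF-kB. They are RefSeq sequences of GRCh38.p14, which held an entry for 8 of the 10 genes (none for ITGAL and ITGB2), and lie at chr1:100719492-100719741 (VCAM1, plus strand), chr19:10270870-10271119 (ICAM1, plus strand), chr11:35138921-35139170 (CD44, plus strand) and chr12:53207252-53207501 (ITGB7, minus strand). Capitals mark matches to 4 motifs searched on both strands: the kB consensus, TATAAA of core promoters, the Sp1-type box GGGCGG and the STAT-type palindrome TTCNNNGAA. The kB consensus was GGGRNNYYCC, where R is A or G, Y is C or T and N is any base. Stretches that depart from a motif in any base are not marked.
VCAM1: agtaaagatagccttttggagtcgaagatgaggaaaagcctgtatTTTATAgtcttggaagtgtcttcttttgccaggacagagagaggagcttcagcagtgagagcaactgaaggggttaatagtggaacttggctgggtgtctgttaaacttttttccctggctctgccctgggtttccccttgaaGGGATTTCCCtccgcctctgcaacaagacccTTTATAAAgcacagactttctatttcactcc
ICAM1: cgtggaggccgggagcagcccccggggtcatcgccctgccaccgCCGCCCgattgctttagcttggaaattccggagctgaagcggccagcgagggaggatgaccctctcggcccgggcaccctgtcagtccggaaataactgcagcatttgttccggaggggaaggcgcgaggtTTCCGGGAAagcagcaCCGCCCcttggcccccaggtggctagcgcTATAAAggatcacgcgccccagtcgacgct
CD44: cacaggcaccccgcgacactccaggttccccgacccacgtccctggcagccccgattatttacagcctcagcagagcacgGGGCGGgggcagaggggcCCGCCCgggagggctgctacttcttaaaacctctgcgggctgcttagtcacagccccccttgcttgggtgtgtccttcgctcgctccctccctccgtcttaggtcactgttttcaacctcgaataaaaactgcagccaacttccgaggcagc
ITGB7: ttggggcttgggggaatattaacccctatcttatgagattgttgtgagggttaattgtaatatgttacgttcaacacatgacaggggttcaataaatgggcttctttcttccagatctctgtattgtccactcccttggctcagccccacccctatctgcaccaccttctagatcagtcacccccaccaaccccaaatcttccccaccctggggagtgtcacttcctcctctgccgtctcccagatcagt
VCAM1 held a kB consensus match 62 to 53 bases before the start, and TATAAA matches 29 to 24 bases before it on the plus strand and 31 to 26 and 205 to 200 bases before it on the minus strand; the pair nearest the start overlap. ICAM1 held TATAAA 30 to 25 bases before the start, TTCNNNGAA 75 to 67 bases before it, and GGGCGG on the minus strand at 206 to 201 and 59 to 54 bases. It held no kB consensus match, but did hold tggaaattcc, which departs from that pattern only in its first base. The lack of a match therefore does not mean that the ICAM1 window lacks a kB site. CD44 held GGGCGG 170 to 165 bases before the start, and on the minus strand 152 to 147 bases before it. In the ITGB7 window none of the 4 motifs was found. Among all 35116 windows of 250 bases in the same table, 9.96% held the kB consensus, 10.7% TATAAA, 42.6% GGGCGG and 6.57% TTCNNNGAA. A match describes the letters only, and no binding was measured.

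Among the integrin chains, ITGB7 had the largest difference. ITGB7 measured 6.20, 5.90, 6.49 and 6.12 in the uninduced arrays and 10.70, 10.86, 10.18 and 10.95 in the induced arrays. The labels lay far apart, with the lowest induced array, B_4/1, well above every uninduced one. The difference was 4.49 ± 0.18 (SE), or 22.5-fold (limma, adjusted p = 4.70e-09). ITGB1, the beta chain shared by many integrins, measured 6.70, 6.80, 6.85 and 6.71 in the uninduced and 8.82, 8.96, 8.75 and 8.66 in the induced arrays. Both sets were tight and separate, and the difference of 2.03 ± 0.09 was 4.09-fold (adjusted p = 1.26e-08). ITGA4, the alpha partner of both, measured 10.31, 10.25, 9.98 and 9.97 in the uninduced and 9.76, 10.02, 9.35 and 9.61 in the induced arrays. The induced B_1/4 array lay inside the uninduced range, so the labels overlapped, and ITGA4 fell by 0.44 ± 0.09, or 1.36-fold (adjusted p = 0.0015).

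The chains of LFA-1 were both higher, by unequal amounts. ITGAL, its alpha chain, measured 4.33, 4.65, 4.70 and 4.79 in the uninduced and 7.85, 8.03, 6.85 and 7.67 in the induced arrays. No arrays overlapped, the induced B_4/1 array was again the lowest of its label, and the difference was 2.98 ± 0.19, or 7.90-fold (adjusted p = 1.95e-07). ITGB2, its beta chain, measured 5.14, 5.25, 5.27 and 5.39 in the uninduced and 5.73, 5.73, 5.32 and 6.15 in the induced arrays. The induced B_4/1 array fell within the uninduced range, and the difference of 0.47 ± 0.13, or 1.38-fold, passed the threshold (adjusted p = 0.010). ITGAV, the alpha chain of receptors for vitronectin and other matrix proteins, measured 8.62, 8.46, 8.46 and 8.22 in the uninduced and 7.86, 7.85, 7.46 and 7.68 in the induced arrays. The labels did not overlap, and ITGAV fell by 0.72 ± 0.09, or 1.65-fold (adjusted p = 6.33e-05).

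Of the ligands, VCAM1 was lower and the ICAM genes did not pass. VCAM1, which activated endothelium displays to VLA-4 on leukocytes, measured 7.68, 7.55, 7.65 and 7.22 in the uninduced and 4.15, 4.18, 3.83 and 4.33 in the induced arrays. The labels were wholly separate, and VCAM1 fell by 3.41 ± 0.13, or 10.6-fold (adjusted p = 3.87e-09). ICAM1, the main ligand of LFA-1, measured 10.39, 10.35, 9.60 and 9.59 in the uninduced and 9.78, 9.75, 9.18 and 9.96 in the induced arrays. The B_1 uninduced arrays were the 2 highest of the 8, and the others overlapped. The ICAM1 difference was -0.31 ± 0.16 (95% interval -0.67 to 0.05, adjusted p = 0.129). Without the induced B_4/4 array the difference was -0.53 and passed (adjusted p = 6.8e-04), and over the 8 fits that each left out 1 array the adjusted p ran from 6.8e-04 to 0.401. ICAM3, a ligand of LFA-1 on resting leukocytes, measured 4.74, 4.62, 4.63 and 4.74 in the uninduced and 5.02, 4.79, 5.07 and 4.61 in the induced arrays, among the dim signals just above the filter. The ICAM3 difference was 0.19 ± 0.10 (95% interval -0.03 to 0.41, adjusted p = 0.131), and it too passed without the induced B_4/4 array (0.27, adjusted p = 0.040; range over the 8 fits 0.040 to 0.386).

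CD44 had the largest drop of the 10 genes. It measured 10.50, 10.46, 9.67 and 9.63 in the uninduced and 5.75, 5.92, 6.01 and 6.09 in the induced arrays. The labels were separated by far more than the spread inside either, while the uninduced arrays themselves formed a B_1 pair and a lower B_4 pair. CD44 fell by 4.12 ± 0.18, or 17.4-fold (adjusted p = 1.18e-08).

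By B code, CD44 was the gene among the 10 with a difference that passed inside a label. In the uninduced arrays, B_4 lay below B_1 by 0.83 ± 0.11 on the log2 scale (10.48 in B_1, 9.65 in B_4; limma, adjusted p = 0.0092), where 2.09% of all tested genes were called lower. In the induced arrays the CD44 difference between B codes was 0.22 with B_4 above B_1 (5.84 in B_1, 6.05 in B_4; adjusted p = 0.669), and 0.0652% of all tested genes were called in either direction. The contrast between those 2 differences, the interaction, was 1.04 ± 0.16 (adjusted p = 0.037), where 0.297% of all genes were called. Put as folds, CD44 was 25-fold lower in the induced arrays under B_1 and 12.1-fold lower under B_4. In the induced arrays the means of its exon-level probe sets ran from 2.42 to 8.99, with several under the exon-level filter of 4.77. A B code difference could hardly show in such dim probe sets, and the part of this in the interaction was not tested. The interaction call was lost when any 1 of the 8 arrays was left out (adjusted p = 0.056 to 0.264), and with the mean of the exon-level probe sets in place of the gene-level one (1.03, adjusted p = 0.092). The call inside the uninduced label was lost when any 1 of its 4 arrays was left out (adjusted p = 0.061 to 0.179).

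ICAM1 had a similar layout, with uninduced B_4 arrays 0.77 ± 0.19 below the B_1 arrays (10.37 in B_1, 9.59 in B_4), which did not pass (adjusted p = 0.061). It passed without the induced B_4/1 or B_4/4 array (adjusted p = 0.011 in each case) and with the uninduced arrays fitted alone (0.0056). In the induced arrays ICAM1 differed by -0.20 (adjusted p = 0.818), and its interaction was 0.58 ± 0.27 (adjusted p = 0.439). As a result the ICAM1 difference between labels was -0.60 under B_1 and -0.02 under B_4, a contrast that did not pass. ITGA4 differed between B codes by -0.31 in the uninduced and -0.41 in the induced arrays, with no overlap of the B codes in either label (adjusted p = 0.222 and 0.435). ITGAL was the gene whose induction difference varied next most, 3.45 under B_1 and 2.52 under B_4, with an interaction of -0.93 ± 0.24 that did not pass (adjusted p = 0.155).

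**Figure D2:**
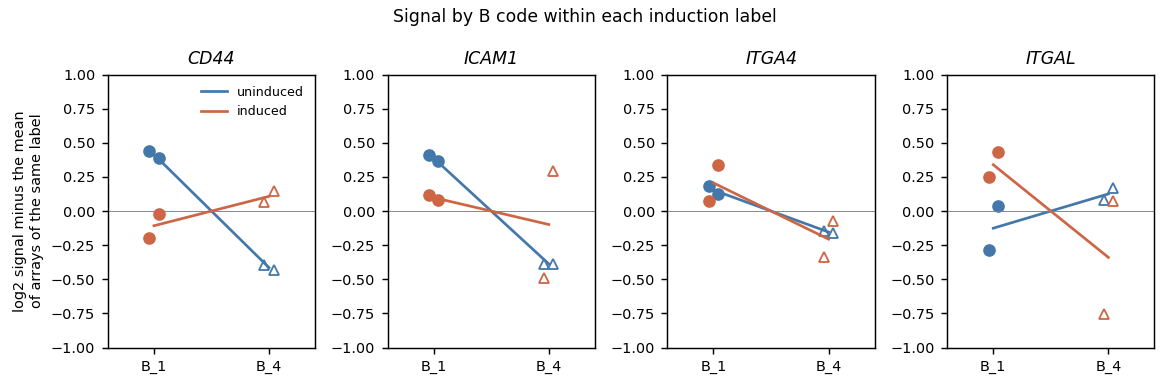
Log2 signal of CD44, ICAM1, ITGA4 and ITGAL in each array minus the mean of the 4 arrays of the same label, by B code (blue, uninduced; orange, induced; lines join the means of the 2 arrays). CD44 sloped down by 0.83 in the uninduced arrays and up by 0.22 in the induced arrays; ITGA4 sloped down in both.

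For the main B code term over both labels, 0% of all tested genes were called by limma (1911 genes at an unadjusted p under 0.05), and the same held for the last number (0%, 971 genes). ITGA4 had the smallest unadjusted p of the 10 genes for the B code (difference -0.36 ± 0.09, adjusted p = 0.243), and ITGAL differed most by last number (0.35 ± 0.19, adjusted p = 0.660). Both uninduced B_4 arrays lay below both B_1 arrays in 4 of the 10 genes (ITGA4, ITGAV, ICAM1 and CD44), against 28.6% of all tested genes, and above them in 2 (ITGAL and ITGB2), against 27.5%. In the induced arrays the same order held in 4 genes (ITGA4, ITGAL, ITGAV and ITGB1), against 15.2%, and 1 gene, CD44, had the opposite order, against 14.2%.

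Exon-level probe sets cover short stretches of a transcript, and 176 of the 196 passed the filter on low signals. They share their RNA and their array, so they are not replicates of one another. Called probe sets followed the direction of their gene in every gene that had any: 27 of 27 tested were higher for ITGAL, 15 of 16 for ITGB7, 12 of 15 for ITGB1 and 3 of 14 for ITGB2. Lower probe sets numbered 17 of 19 tested for CD44, 10 of 10 for VCAM1, 18 of 32 for ITGAV and 16 of 28 for ITGA4. For ICAM1 0 of 10 and for ICAM3 0 of 5 passed in limma. At an unadjusted p under 0.05 there was 1 probe set of each, against 75000 of all 168240 tested. Of all 168240 tested probe sets, 17.9% were called higher and 17.5% lower.

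**Figure D3:**
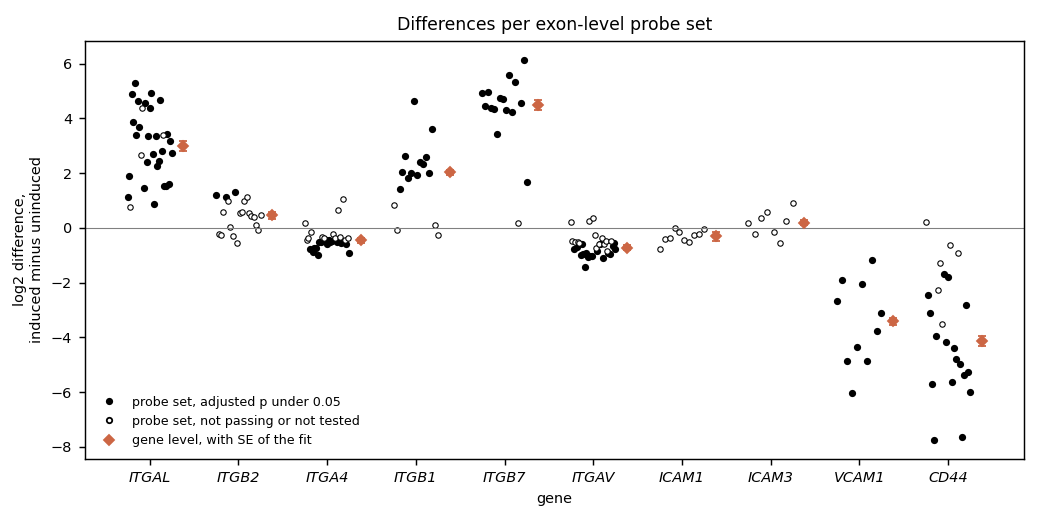
Log2 difference (induced minus uninduced) of every exon-level probe set of the 10 genes; filled points passed the adjusted threshold of 0.05, open points did not or were too dim to test, and diamonds give the gene-level difference with its SE. ITGB7 probe sets ran from 0.16 to 6.14, those of CD44 from -7.73 to 0.21, and those of ICAM1 from -0.77 to 0.01.

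Within the beta chains, single probe sets departed from their gene. For ITGB7, probe set 7963627 measured 8.23, 9.02, 8.64 and 8.73 in the uninduced and 9.06, 8.90, 8.48 and 8.83 in the induced arrays, a difference of 0.16 ± 0.20 with overlapping labels (adjusted p = 0.573). The strongest ITGB7 probe set, 7963629, had means of 5.48 and 11.62, a difference of 6.14 ± 0.38. Exon usage, which asks in limma's diffSplice test whether the probe sets of 1 gene differ in their difference between labels, was called for ITGB7 (adjusted p = 1.07e-19). The test treats the probe sets of a gene as independent although they share arrays, so its p-values can be too small. For ITGB1, probe set 7932982 measured 13.04, 13.23, 13.07 and 13.15 in the uninduced and 12.93, 12.91, 12.76 and 12.92 in the induced arrays. Its difference was -0.24 ± 0.13 (adjusted p = 0.207), and the labels did not overlap. By contrast ITGB1 probe set 7932974 went from a mean of 3.89 to 8.53, a difference of 4.65 ± 0.25, and exon usage of ITGB1 was called (adjusted p = 1.50e-14). ITGB2 ranged from -0.56 in probe set 8070836, too dim to test, to 1.33 ± 0.23 in 8070835.

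All 31 probe sets of ITGAL had a positive difference, from 0.77 in 7994829, which was too dim to test, to 5.27 ± 0.49 in 7994832 (means 3.70 and 8.98). ITGA4 ran from -0.99 ± 0.20 in 8046704 to 1.06 in 8046720, and ITGAV from -1.43 ± 0.31 in 8046872 to 0.35 in 8046878; the upper end of both was too dim to test. For VCAM1, probe set 7903362 measured 10.05, 9.96, 9.79 and 9.66 in the uninduced and 3.68, 3.78, 2.97 and 4.96 in the induced arrays, a difference of -6.02 ± 0.37. The smallest VCAM1 difference, in 7903366, was -1.19 ± 0.20 (means 7.61 and 6.42), and both were called. ICAM1 ran from -0.77 in 8025602 to 0.01 in 8025605, and ICAM3 from -0.57 in 8033993, too dim to test, to 0.91 in 8033995; none of these passed.

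Exon usage was called for 8 of the 10 genes, against 41% of the 14639 genes with at least 3 tested probe sets. ICAM1 (adjusted p = 0.670) and ICAM3 (adjusted p = 0.558) were not called. VCAM1 (adjusted p = 1.50e-14), ITGAL (1.88e-15) and CD44 (6.07e-26) were among the called genes. Because probe sets of the same arrays are counted as independent in this test, such small values overstate what 8 arrays can show. ITGA4 (adjusted p = 0.0041), ITGAV (0.019) and ITGB2 (0.011) each lost the call when some single arrays were left out. ITGA4 lost it without the B_1/4 or B_4/1 array of either label (adjusted p up to 0.417). ITGAV lost it without the uninduced B_1/1, B_4/1 or B_4/4 or the induced B_1/1 or B_4/4 array (up to 0.161). ITGB2 lost it without the uninduced B_1/1 or B_1/4 or the induced B_4/4 array (up to 0.153), and with the Simes form of the test (0.146). Over the probe sets of a gene, the mean of the brighter label and the size of the difference correlated at 0.836 for VCAM1 (10 probe sets), 0.735 for CD44 (23), 0.711 for ITGB7 (16), 0.501 for ITGAL (31) and 0.320 for ITGB1 (16). In the others it was 0.149 for ICAM3 (8), 0.0865 for ITGAV (33), -0.297 for ITGA4 (29), -0.318 for ITGB2 (20) and -0.565 for ICAM1 (10). These values are a description over probe sets of the same arrays, and the part of signal level in the exon usage calls was not tested.

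CD44 is followed probe set by probe set because its variant exons are spliced in or out. The annotation used here pairs the 23 CD44 probe sets with the gene but with no exon and no position, so none can be named as a variant exon, and they are given in the order of their numbers. The first, 7939342, measured 5.45, 5.74, 6.19 and 4.93 in the uninduced and 6.12, 5.25, 6.09 and 5.70 in the induced arrays. Its labels overlapped, and the difference was 0.21 ± 0.26 (adjusted p = 0.568), the only positive one of the 23. Next in number, 7939343 fell from a mean of 10.51 to 8.04, 7939344 from 8.36 to 5.25 and 7939345 from 10.49 to 4.80. Probe set 7939346 had the largest difference, with 12.13, 11.80, 10.69 and 11.01 in the uninduced and 4.37, 3.43, 4.04 and 2.87 in the induced arrays. Every induced value of it was far below every uninduced one, and it fell by 7.73 ± 0.28, against a fall from 11.08 to 7.13 in 7939347.

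For the 11 probe sets from 7939348 to 7939358 the difference had a median of -2.27, and 6 were called lower, 1 did not pass and 4 were too dim to test. For the other 11, 7939343 to 7939347 and 7939359 to 7939364, the median was -5.28 and 11 of 11 were called lower. These stretches were chosen after the values were seen and get no test. Their uninduced means ran from 3.06 to 9.36 in the first (median 6.63) and from 8.36 to 11.82 in the second (median 10.49). The ranges overlapped, but the first stretch mostly started lower and so had less room to fall. The part of this in the 2 median differences was not tested. Since a signal depends on its probes, such levels do not give the abundance of any exon.

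Within the first stretch, 7939352 fell from 7.48 to 3.31, 7939355 from 8.29 to 2.67, 7939356 from 7.63 to 3.23 and 7939357 from 9.36 to 4.58. Smaller falls were those of 7939353, from 8.27 to 6.46, and 7939351, from 6.63 to 4.96, and 7939349 did not pass (5.94 and 4.65, adjusted p = 0.077). The 4 too dim to test, by their mean over all 8 arrays, were 7939348 (5.43 and 3.16), 7939350 (6.15 and 2.64), 7939354 (3.06 and 2.42) and 7939358 (4.10 and 3.17). Of these, 7939348 and 7939350 had uninduced means above the filter of 4.77. Their labels did not overlap, with differences of -2.27 and -3.50 that got no test. After the first stretch, 7939359 fell from 10.12 to 5.15, 7939360 from 11.28 to 3.65 and 7939361 from 10.45 to 5.07. 7939362 fell from 11.82 to 8.99, 7939363 from 10.16 to 4.87, and 7939364 fell by 6.01 to 3.99.

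**Figure D4:**
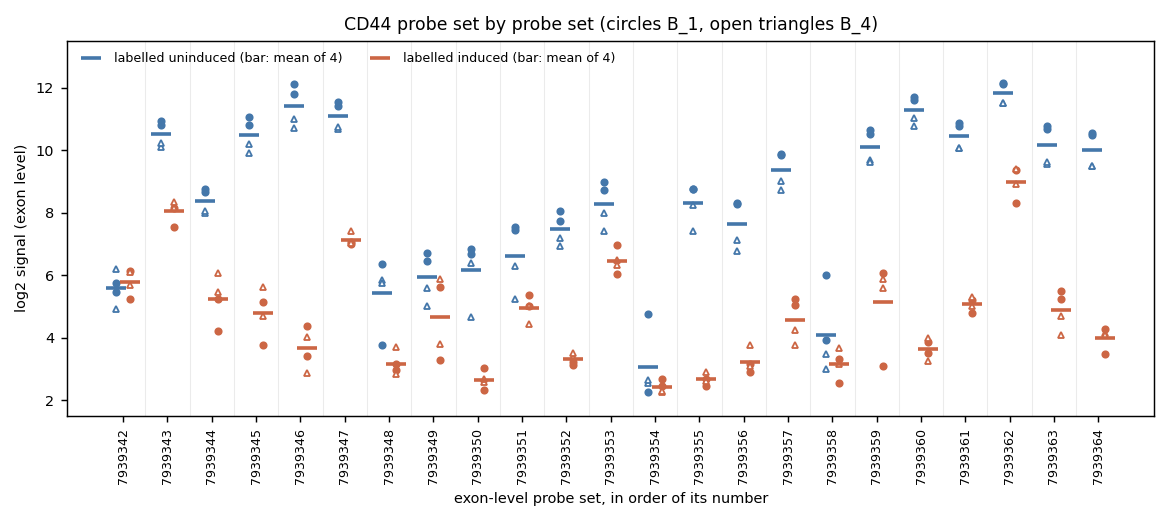
Log2 exon-level signal of the 23 CD44 probe sets in the 8 arrays, in the order of their numbers (blue, uninduced; orange, induced; filled circles B_1, open triangles B_4; bars, means of 4). The bars of the labels lie furthest apart in 7939346 (11.41 and 3.67), and in 18 of the 19 tested probe sets both uninduced triangles lie below both circles.

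Of the 19 CD44 probe sets tested, 13 differed from the rest of the gene in the exon usage test, against 12.2% of all probe sets tested this way. The departures ran in both directions: relative to the other probe sets of CD44, the log2 difference was -3.80 in 7939346 and -3.69 in 7939360, and 4.59 in 7939342 and 2.60 in 7939351. The B code pattern of CD44 was spread over the gene, with both uninduced B_4 arrays below both B_1 arrays in 18 of its 19 tested probe sets, against 24.5% of all tested probe sets. In the induced arrays the same order held in 2 of 19, against 16.8% of all tested probe sets. For ICAM1 it held in 9 of 10 tested probe sets in the uninduced and 0 of 10 in the induced arrays, and for ITGA4 in 19 of 28 and 18 of 28. Probe sets of a gene share the arrays of its gene-level signal, so these counts largely restate its order and are no separate support. The interaction of B code and label was called for 0% of exon-level probe sets in limma, with 12330 of 168240 at an unadjusted p under 0.05, 17 of them in the 10 genes.

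Genes with the most similar course over the 8 arrays were sought for the 3 genes with the largest differences, by the root mean square gap between mean-centred signals. For ITGB7 they were LAMC1 (0.188 log2 units) and PDLIM1 (0.191), for CD44 BCAS1 (0.0983) and TMEM106B (0.110), and for VCAM1 TRIM10 (0.130) and CD93 (0.134). BCAS1 and TMEM106B shared the B code order of CD44 in the uninduced arrays, an order held by 28.6% of all tested genes. BCAS1 measured 9.49, 9.57, 8.72 and 8.60 in the uninduced and 4.90, 5.22, 5.04 and 5.22 in the induced arrays. TMEM106B measured 8.27, 8.14, 7.67 and 7.48 in the uninduced and 3.66, 3.67, 3.94 and 4.08 in the induced arrays. All genes named here share the same 8 arrays, and each has the same step between labels as the gene it resembles.

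Other genes of adhesion were read from 8 lists, each beside the background of 27.1% higher and 28.4% lower. Of 10 tested other alpha chains, 3 were higher, 2 lower and 5 did not pass (median difference 0.08, against 0.02 for all genes). ITGA6, a laminin receptor chain, was higher by 2.65 ± 0.12 and ITGAE, which pairs with ITGB7, by 0.76 ± 0.09, while ITGA3 fell by 2.22 ± 0.15. ITGAM, which pairs with ITGB2, fell by 0.40 ± 0.13, a call lost without the B_1/1 or B_4/4 array of either label (adjusted p = 0.067 to 0.087). Of 3 tested other beta chains, 1 was higher, ITGB3, a partner of ITGAV, by 2.70 ± 0.15 (median 0.11). ITGB4 and ITGB5 did not pass, and ITGB6 and ITGB8 were too dim to test. Thus 2 of the partners of ITGAV, ITGB1 and ITGB3, were higher while ITGAV itself was lower, which was not so for every beta chain listed.

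Of 18 tested other adhesion receptors and ligands, 5 were higher and 7 lower (median -0.14). PECAM1, a receptor of platelets, leukocytes and endothelium, measured 10.62, 10.40, 10.88 and 10.67 in the uninduced and 4.99, 5.14, 5.08 and 4.98 in the induced arrays, and fell by 5.60 ± 0.10. ALCAM, the ligand of CD6, fell by 4.28 ± 0.14, JAM2 was higher by 1.59 ± 0.13 and SELPLG, the ligand of P-selectin, by 0.87 ± 0.17. Of 14 genes that control integrin activation, activators and inhibitors together, 6 were higher and 4 lower (median 0.14). The talin TLN2 was higher by 1.57 ± 0.08 (means 5.78 and 7.34), while the other talin, TLN1, fell by 0.79 ± 0.08 (10.25 and 9.46). The small GTPase RAP1A was higher by 1.16 ± 0.11. APBB1IP, which links RAP1 to talin, fell by 2.42 ± 0.10 and ITGB1BP1, an inhibitor that binds the tail of ITGB1, by 1.41 ± 0.09. SHARPIN, another inhibitor of integrin activation, fell by 0.43 ± 0.08. Of 18 genes of integrin signalling and linkage to actin, 5 were higher and 7 lower (median 0.01). The focal adhesion kinase gene PTK2 measured 9.59, 9.38, 8.58 and 8.63 in the uninduced and 4.57, 4.71, 4.52 and 4.47 in the induced arrays, and fell by 4.48 ± 0.14. Vinculin (VCL) fell by 2.13 ± 0.08, and PARVB and ILK, partners in one adhesion complex, were higher by 1.18 ± 0.11 and 0.71 ± 0.10.

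Of 10 extracellular integrin ligands, 4 were higher and 2 lower (median 0.12). The laminin chain LAMC1 was higher by 4.31 ± 0.10 and MFGE8, a ligand of ITGAV integrins, by 1.18 ± 0.11, while fibronectin (FN1) fell by 1.20 ± 0.10 and ADAM15 by 1.14 ± 0.10. Of 11 ligands, partners and proteases of CD44, 5 were higher and 2 lower (median 0.09). HAS2, which makes hyaluronan, measured 4.09, 3.86, 4.06 and 4.27 in the uninduced and 7.61, 7.17, 7.30 and 7.65 in the induced arrays and was higher by 3.36 ± 0.13. Moesin (MSN), which ties CD44 to actin, was higher by 2.81 ± 0.10, while the protease ADAM17 fell by 0.98 ± 0.10 and the hyaluronan receptor HMMR by 0.38 ± 0.09. Of 15 regulators of CD44 splicing, 4 were higher and 4 lower (median -0.02). MBNL1 was higher by 2.72 ± 0.08 and KHDRBS1 by 0.61 ± 0.08, while CELF1 fell by 0.92 ± 0.08 and RBFOX2 by 0.80 ± 0.08. All rises and falls named from the lists passed the adjusted threshold in limma.

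**Figure D5:**
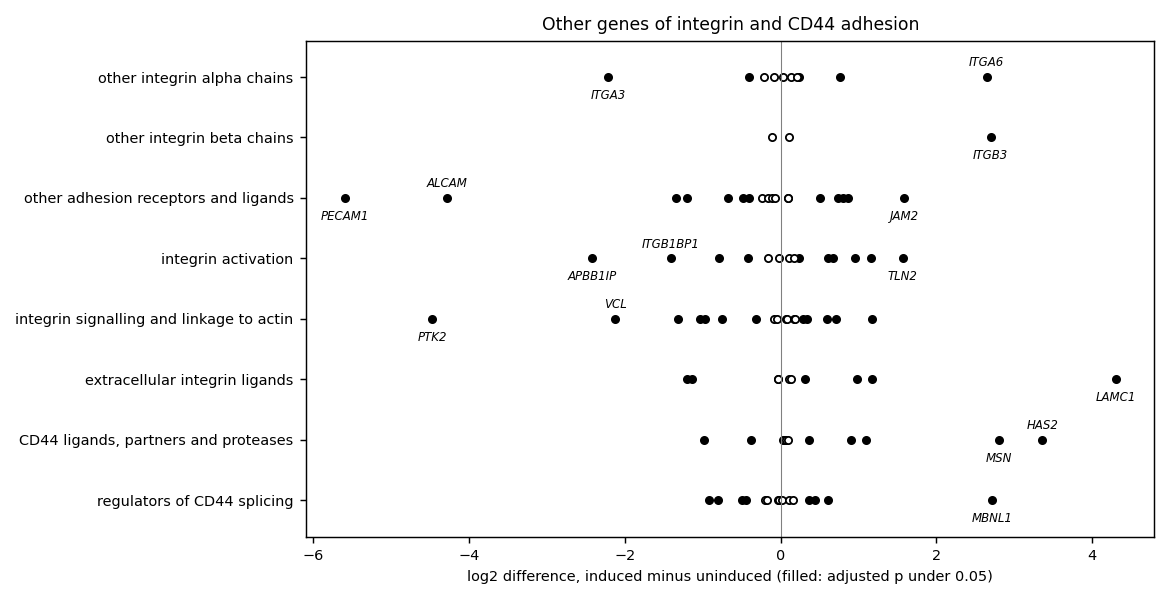
Log2 difference (induced minus uninduced) of the tested genes of the 8 lists, 1 point a gene, filled where the adjusted p was under 0.05; genes named in the text with a difference beyond 1.3 are labelled. The points spread to both sides of 0 in every list, from -5.60 (PECAM1) to 4.31 (LAMC1).

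Markers of cell types moved with the labels as well. For B cells, 5 of 6 markers were measured and 3 of the 4 tested were higher in the induced arrays: CD79A by 5.31, CD22 by 4.11 and PAX5 by 2.76, with CD79B not passing and MS4A1 under the filter. The mean of the list was 6.23 to 6.48 in the uninduced and 8.61 to 8.89 in the induced arrays. Of the 6 markers of Hodgkin and Reed-Sternberg cells, TNFRSF8 and IRF4 were higher, FUT4, CCL22 and FSCN1 lower, and the list mean was 7.89 to 7.99 and 8.02 to 8.27. VCAM1 and PECAM1 are known from endothelium, and of the other 5 endothelial markers CDH5, VWF, TEK and KDR were under the filter in these arrays and ESAM did not pass. T cell markers had list means of 4.59 to 4.68 and 4.57 to 4.70, with 0 of 2 tested markers called, and myeloid markers 4.83 to 5.07 and 4.96 to 5.19, with CD68 higher and ITGAM lower. Fibroblast markers had list means of 4.89 to 5.01 and 4.99 to 5.08, with PDGFRB higher by 0.59 and the other 3 tested not passing. Epithelial markers had list means of 5.63 to 5.87 and 6.07 to 6.27, with CDH1 higher by 2.32 and KRT18 by 0.51, KRT8 lower by a difference of -0.54, and KRT19 not passing. The part of these shifts in the differences of the 10 genes was not tested.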

How the data were processed

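Total RNA extracted with TRIZOL was made into sense-strand cDNA, fragmented and labelled with biotin, per the labels' protocols. The authors deposited log2 signals made with RMA and Partek, per the submitters' processing notes, which give no version. The base of 2 is inferred from how RMA reports and from the values' range. Genome build, annotation and filters: not given in the sources used here. RMA equalises the arrays, so a shift of all genes would be removed, and it compresses dim signals. Gene-level and exon-level samples are summaries of the same 8 arrays (4428 of 4428 shared features identical at tolerance 0). Array medians were 5.79 to 5.88 at gene level and 6.51 to 6.59 at exon level; the number of arrays limits precision.

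Symbols came from the platform annotation, updated through RefSeq of GRCh38.p14: 19460 of 33297 gene-level and 224320 of 257430 exon-level probe sets carried a single symbol, 1754 and 10159 carried more than 1, and the rest carried no symbol (12083 and 22951). The brightest probe set stood for each gene, and means under the 25th percentile (4.78 at gene level) were left out, leaving 13796 genes and 168240 exon-level probe sets. Limma 3.58.1 in R 4.3.3 fitted label, B code and last number (residual degrees of freedom 4, prior 6.27), and every adjusted p is Benjamini-Hochberg over all features of that fit. The fits were tested on simulated data. The genes and lists were chosen with earlier results of these data known. Named were the 10 genes, RELB, the 2 largest called rises and falls of each list, and each gene's extreme probe sets with all of CD44's. Also named were the 2 genes most like each of the 3 largest differences. Markers, TLN1, SHARPIN, ITGB4, ITGB5, ITGB6, ITGB8 and other probe sets named besides were chosen after their values were seen. Alternatives were other filters, scalings, probe set summaries, variance settings, pair blocks and leaving out each array.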

Additional observations from a re-analysis of the deposited data

Results flagged for a closer look

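Among 80 groups of 4 arrays, 4 held 1 array apart from the rest, where chance flags about 1 in 20. ALCAM in the induced arrays had the B_1/1 array at 6.32 against 5.40 for the next, a gap of 0.967 of the range. TLN2 in the uninduced arrays had B_1/4 at 6.03 against 5.72, a gap of 0.851 of the range. ADAM15 in the uninduced arrays had B_1/4 at 7.86 against 7.64, a gap of 0.923 of the range. HMMR in the induced arrays had B_1/1 at 7.83 against 7.54, a gap of 0.871 of the range. None of the 10 integrin, ligand and CD44 genes had such an array in either label. The B code difference of CD44 differed between the labels, with an interaction of 1.04 (limma, adjusted p = 0.037), a call lost when any 1 of the 8 arrays was left out (0.056 to 0.264).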

How the results depend on the processing

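The direction of each of the 10 genes between labels was the same under every alternative run, with no reversal. With the filter at the median, 2 genes were called higher instead of 4, since ITGAL, ITGB2, ICAM3 and VCAM1 were then too dim to test. Leaving out each array gave 4 to 5 genes higher and 4 to 5 lower. Within uninduced arrays, 2 genes were lower by B code (CD44 and ICAM1, main 1) with the median filter, median centring or a variance trend, and 0 to 2 over the leave-outs. Fitting the arrays of 1 label alone gave 2 lower genes for uninduced and 0 for induced. Over both labels the count was 0 in the main fit and 0 to 1 over the leave-outs. The interaction called 41 genes, but 65 with median centring, 174 with a variance trend, 26 with exon-level means and 3 to 33 over the leave-outs; CD44 was its 1 call among the 10 genes, 0 with exon-level means and 0 in every leave-out. Exon usage was called for 8 of the 10 genes and for 6 to 7 over the leave-outs. The causes were not tested beyond fewer genes or arrays. Quantile normalization moved the higher share of calls from 48.9% to 45.5%. Dim signals limit ICAM3, ITGB2 and 4 CD44 probe sets under the filter. They also limit ITGAL in the uninduced arrays (mean 4.62) and VCAM1 in the induced arrays (mean 4.12). Several CD44 probe sets are limited in the same way in the induced arrays (lowest mean 2.42).

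Same-titled arrays of the 2 labels correlated at 0.158, -0.021, 0.114 and 0.022 in their deviations, so the titles share numbers without shown pairing, and not every array correlated best with its own number. With the replicate block, 3567 genes were called higher and 3769 lower (3744 and 3912 without it), 4 and 4 of the 10 genes, and the interaction called 56.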
